A study of Mus musculus with 9 samples.

Results

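Cytosolic ribosomal protein genes encode the protein subunits of the ribosome that translates nuclear-encoded mRNAs. They were taken here as genes whose symbol starts with Rpl or Rps followed by a number (with paralog suffixes), plus Rplp0, Rplp1, Rplp2, Rpsa and Fau where the tables named them, without ribosomal S6 kinases and pseudogenes. The rule found 48 of 22442 genes in the count tables, 14 of the small and 34 of the large subunit. Their RNA was followed in an iCLIP experiment on Chtop, which sequences the RNA that ultraviolet light has joined to a protein and an antibody has pulled down. N2a Flp-In rtTA cells, a mouse neuroblastoma line, carried a doxycycline-inducible FLAG-tagged Chtop cDNA that either contained or lacked exon 5. Expression was induced with 2 µg/mL doxycycline for 24 hours, cells were crosslinked at 0.15 J/cm2, and anti-FLAG immunoprecipitates gave 3 libraries per isoform. The 3 size-matched inputs were taken from 2% of lysates before the antibody step and came from 3 different induced lines: Chtop without exon 5 (input 1), Chtop with exon 5 (input 2) and FLAG-GFP (input 3). The labels call the replicates independent and processed on separate days. In all lines the cDNA was expressed from a transgene, and the endogenous Chtop gene is not described as altered.

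Chtop is an RNA-binding protein that acts with the TREX complex in the export of mRNA from the nucleus. Ribosomal protein mRNAs are short and among the most abundant messages of growing cells. Most begin with a cytosine followed by an uninterrupted run of pyrimidines, the 5' terminal oligopyrimidine (TOP) motif, through which mTOR signalling and the La-related protein Larp1 control their translation.

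Totals ran from 624062 to 1844970 counts in the isoform libraries and from 75504 to 173342 in the inputs, so the inputs were the shallower side of every comparison with them. Levels are CPM, that is, counts relative to library size after TMM scaling, unless stated. In CPM, 3 counts in 1 library were worth 2.10 to 5.51 in the isoform libraries and 16.3 to 21.1 in the inputs, and these limits cover counting error only. Of 11 named neuroblastoma markers, 11, 10 and 10 had a count with exon 5, without exon 5 and in the inputs, Dbh being the one at 0. Among 4 named markers of other cell types, Alb and Col3a1 were at 0 in all libraries, and the list summed to at most 70.4 CPM in any library.

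The RefSeq sequences around the annotated starts (GRCm38.p6) are shown because the TOP motif is what these mRNAs are known for. RefSeq promoter entries were matched for 40 of the 48 genes, with 51 starts. A start with C followed by 4 or more pyrimidines, a run of at least 5 beginning at the annotated base, was found at 7 of the 51 starts (13.7%), against 2.51% of 32851 starts of all genes. Each line gives 10 bases before and 15 bases from the start on, 5′ to 3′ on the transcribed (plus) strand, and capitals mark the pyrimidine run that begins at the start.
Fau: gcccccacttCTTCCTCTTTCTTga
Rpl14: ggccctctctCTTCTCgctgagcgc
Rpl28: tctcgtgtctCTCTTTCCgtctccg
Rpl35a: gcttgccttcCTCTTTCCgccatct
Rpl38: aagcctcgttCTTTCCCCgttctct
Rplp2: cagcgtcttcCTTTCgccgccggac
Rps21: aggacccgccCTCCTgcccaatagt
In the order printed, these windows lie at chr19:6057937-6057961, chr9:120571507-120571531, chr7:4792955-4792979, chr16:33056472-33056496, chr11:114668570-114668594, chr7:141447641-141447665 and chr2:180257369-180257393. The run was longest in Fau, with 13 pyrimidines, and shortest in Rplp2 and Rps21, with 5 each. A run of 8 or more pyrimidines anywhere in the 60 bases from 10 before the start to 50 from it on was present at 58.8% of the starts of ribosomal protein genes and at 21.2% of all starts. The letters CTTTC were present in that window on the transcribed strand at 45.1% against 7.30%, and on either strand at 49.0% against 14.6%. These letter matches overlap each other and describe annotated starts, not the starts used in N2a cells.

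Ribosomal protein mRNAs took a much smaller share of the RNA recovered with either Chtop isoform than of the inputs. They held 0.889%, 0.545% and 0.412% of all counts in inputs 1, 2 and 3. With exon 5 they held 0.0640%, 0.0921% and 0.104% of the counts, and without exon 5 0.0758%, 0.0756% and 0.0702%. The lowest input was above the highest isoform library, and the group means were 0.615% ± 0.246, 0.0868% ± 0.0207 and 0.0739% ± 0.00315 (SD, n = 3 each). The mean share in the inputs was thus 7.09 times that with exon 5 and 8.33 times that without, and no test was made on a score summed over the chosen genes. A share is relative: fewer reads on these genes and more reads on others cannot be told apart in such counts, and neither can fewer cells and less RNA per cell.

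**Figure D1:**
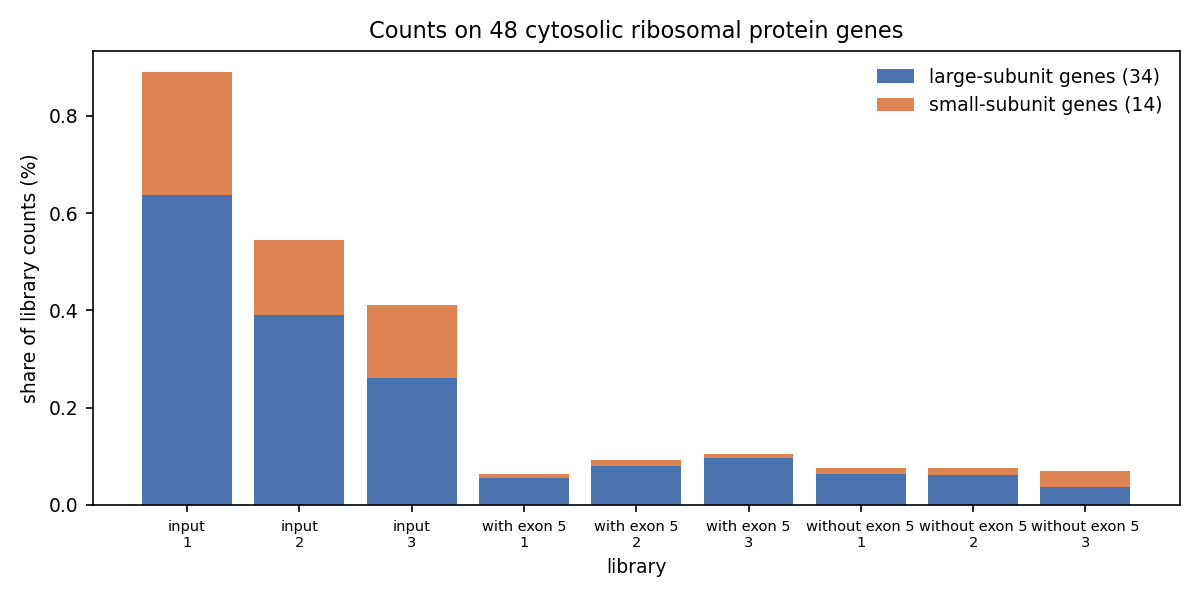
Share of each library's counts (%, y axis from 0) on the 34 large-subunit (blue) and 14 small-subunit (orange) genes, 1 bar per library. All 3 inputs (0.412% to 0.889%) stand above all 6 isoform libraries (0.0640% to 0.104%).

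For both ribosomal subunits the inputs were highest. The large-subunit genes held 0.430% ± 0.191 of the input counts, 0.0774% ± 0.0208 with exon 5 and 0.0540% ± 0.0150 without it. The small-subunit genes held 0.186% ± 0.0572 of the input counts, 0.00945% ± 0.00275 with exon 5 and 0.0199% ± 0.0119 without it (SD, n = 3 each). A single gene moved the last value: Rps15, a small-subunit protein near the decoding site, had 415 of its 599 counts in the third library without exon 5. Likewise Rpl22l1, the paralog of Rpl22, had 706 of its 710 counts in the third library with exon 5. Without both genes the ribosomal protein share was 0.590% in the inputs, 0.0679% with exon 5 and 0.0640% without.

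The counts behind single genes were thin. Of the 48 genes, 47 had a count in at least 1 library, and Rpl3l, a paralog of Rpl3 best known from striated muscle, had none. Only 5 genes had a count in all 9 libraries, and 11 had most of their counts in 1 library, 5 of these in an input. The median gene had 36.0% of its counts in its highest library. PCR duplicates and reads from ribosomal protein pseudogenes or near-identical copies may be among these counts: their treatment before counting is not stated in the labels or file headers, the tables name 0 such pseudogenes, and their part in the results was not tested.

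Over the 47 genes with a count, 42 (89.4%) had a lower mean CPM with exon 5 than in the inputs, against 33.0% of 12215 genes with a count in these libraries. The number was also 42 (89.4%) without exon 5, against 31.6% of 12612 genes. The filter on low counts passed 34 of the 48 genes, and a gene could pass through its input counts alone. Among these 34, the fitted log2 fold changes over input had a median of -2.95 with exon 5 and of -2.55 without, while the medians over all 8342 genes tested were 1.03 and 1.03. The fitted values of the 34 ranged from -9.34 (Rps19) to 1.61 (Rpl3) with exon 5 and from -7.91 (Rpl36) to 1.66 (Rpl3) without. Rps19 and Rpl36 had 0 counts in the isoform group compared, so their fitted sizes depend on the prior count. Against 3 counts per library they were at least 33.2-fold and 12.5-fold lower. With groups at 0 set to that bound, the medians of all genes were 0.70 and 0.72, and those of the 34 were unchanged. Below the median of all genes lay 32 and 33 of the 34. The comparisons share the 3 inputs, so they are not independent of each other. TMM scaling itself moved the median of all genes: with library size alone it was 0.39 and 0.37, and the ribosomal protein medians were then -3.73 and -3.18.

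**Figure D2:**
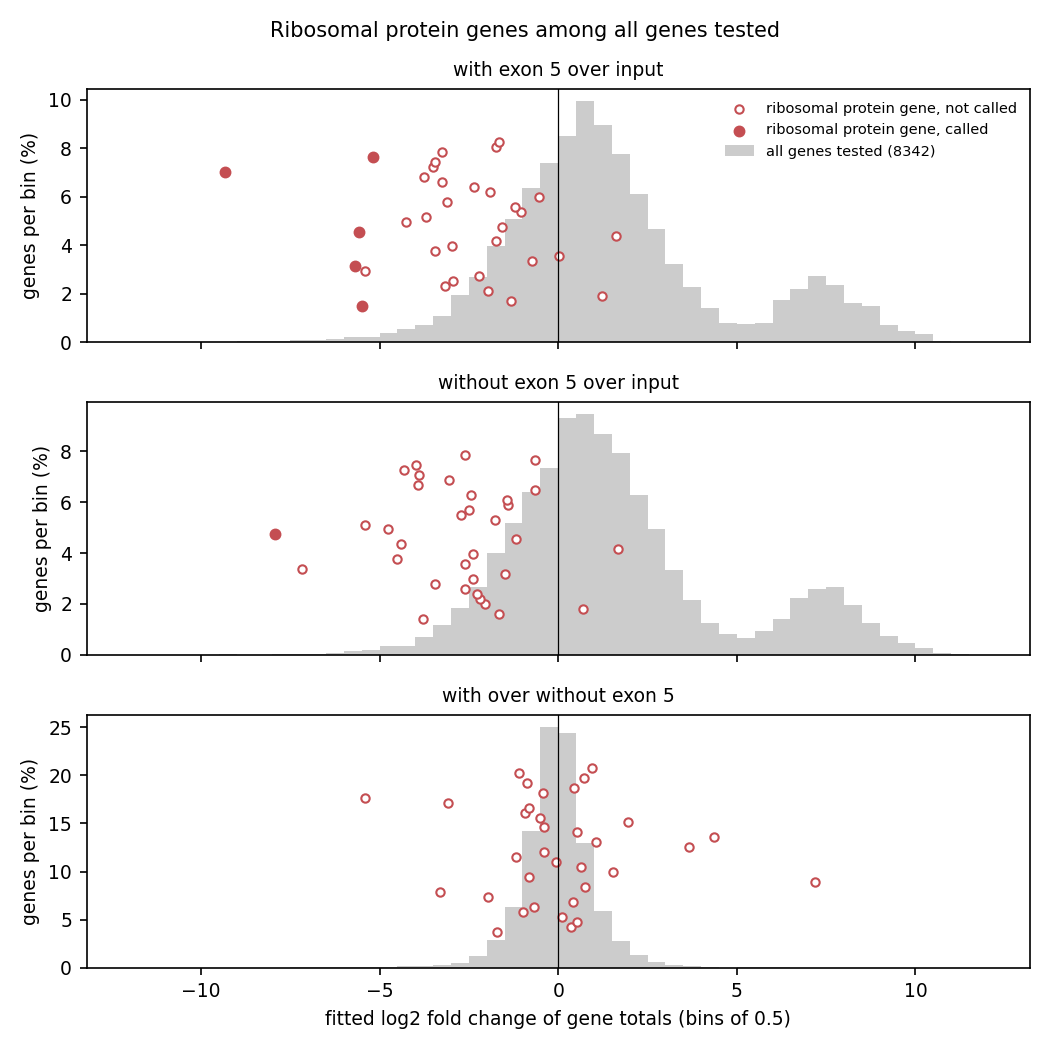
Fitted log2 fold changes of gene totals (x axis) for the 34 ribosomal protein genes tested (red circles, filled where called, spread vertically for display only) over the distribution of all 8342 genes tested (grey bars, % of genes per bin of 0.5). Against input the circles lie mostly left of the bulk, with medians of -2.95 and -2.55 against 1.03, and between isoforms they surround 0; the grey hump far right holds genes at or near 0 in the inputs, whose fitted size depends on the prior count.

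With exon 5, 5 of the 34 genes were lower than in the inputs and 0 were higher at an adjusted p under 0.05 in edgeR's quasi-likelihood test, while 0.863% of all genes tested were called lower and 8.31% higher. At an unadjusted p under 0.05, in either direction, there were 12 of the 34 genes (35.3%), near the 29.2% of all genes tested. In 13 of the 34 genes every library with exon 5 lay below every input, a pattern that 3.40% of all genes tested showed. The 5 called genes were Rps19, Fau, Rps25, Rpl31 and Rpl21, 3 from the small and 2 from the large subunit. None of the 5 would have passed the filter on low counts on its isoform libraries alone. They were tested because they were high in the inputs, so their direction is not separate from how genes entered the test.

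Rps19 (ENSMUSG00000040952.16, chromosome 7, 24884592 to 24889811 in GRCm38.p6), a small-subunit protein known for its mutation in Diamond-Blackfan anaemia, had 0 counts in all 3 libraries with exon 5. In inputs 1, 2 and 3 it stood at 84.1, 81.7 and 211 CPM, and without exon 5 at 0, 3.53 and 19.6 CPM. The groups did not overlap. Against the floor of 3 counts per library, it was at least 33.2-fold lower with exon 5 (adjusted p = 0.0201, edgeR).

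Fau (ENSMUSG00000038274.13, chromosome 19, 6057947 to 6059524), which encodes a ubiquitin-like protein fused to a small-subunit protein and has the longest pyrimidine run shown above, stood at 96.1, 136 and 204 CPM in the inputs. It stood at 0, 0 and 8.42 CPM with exon 5, and at 12.9, 16.5 and 2.10 CPM without. All 6 isoform libraries lay below all inputs, and the log2 fold change with exon 5 was -5.50 ± 1.57 (SE; adjusted p = 0.0419, edgeR).

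Rps25 (ENSMUSG00000009927.9, chromosome 9, 44407714 to 44410406), a small-subunit protein known for its part in initiation at internal ribosome entry sites, stood at 312, 267 and 91.6 CPM in the inputs. Its levels were 0, 0 and 16.9 CPM with exon 5 and 23.9, 4.70 and 5.60 CPM without. Again no isoform library reached the lowest input, and the log2 fold change with exon 5 was -5.19 ± 1.56 (SE; adjusted p = 0.0494, edgeR).

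Of the large subunit, Rpl31 (chromosome 1, 39367851 to 39371911), which sits near the exit of the peptide tunnel, stood at 276, 32.7 and 183 CPM in the inputs, at 0, 2.85 and 6.55 CPM with exon 5 and at 7.35, 12.9 and 2.80 CPM without. Its log2 fold change with exon 5 was -5.57 ± 1.46 (SE; adjusted p = 0.0329, edgeR). Rpl21 (chromosome 5, 146832890 to 146837032), another large-subunit protein, stood at 270.3, 92.6 and 14.1 CPM in the inputs, at 5.71, 1.43 and 0 CPM with exon 5 and at 42.3, 2.35 and 28.0 CPM without. It fell by 5.68 ± 1.68 on the log2 scale with exon 5 (SE; adjusted p = 0.0475, edgeR), while its levels without exon 5 overlapped the inputs.

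Without exon 5, 1 of the 34 genes was lower than in the inputs, Rpl36, and 0 were higher, while 0.587% of all genes tested were called lower and 8.12% higher. At an unadjusted p under 0.05, in either direction, there were 14 of the 34 genes (41.2%) and 28.5% of all genes tested. In 12 genes every library without exon 5 lay below every input, against 3.43% of all genes tested. Rpl36 (chromosome 17, 56610094 to 56614246), a small protein of the large subunit, stood at 78.1, 54.5 and 7.04 CPM in the inputs and at 0 in all 3 libraries without exon 5, at least 12.5-fold lower (adjusted p = 0.0399, edgeR). With exon 5 it stood at 2.86, 0 and 3.74 CPM. Rpl36 too would not have passed the filter on its isoform libraries alone.

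These calls stood close to the threshold and moved with single libraries. In the comparison with exon 5, leaving out any library of that isoform left 0 ribosomal protein genes called and 58 to 137 of all genes, against 765 with all libraries. Leaving out any library without exon 5, a group that shares the filter, scaling and spread of the fit, left 1, and 211 to 229 of all genes. Leaving out input 1, 2 or 3 gave 3, 8 and 10, of which 1 of the 8 was higher, while 1084, 2411 and 1126 of all genes were called. In the comparison without exon 5, leaving out any 1 isoform library or input 1 left 0 called, and leaving out input 2 or 3 gave 4, of which 1 was higher, and 7, while 2354 and 1107 of all genes were called, against 726 with all libraries. All alternatives kept the medians below 0, from -3.73 to -2.37 with exon 5 and from -3.18 to -1.93 without.

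Rpl4 and Rpl12 had counts in all 9 libraries and did not pass the test. Rpl4, which lines the exit tunnel, had the highest mean level in the inputs, at 499, 414 and 261 CPM. It was also the highest without exon 5 apart from Rps15, and the second highest per kilobase in all groups. It stood at 154, 238 and 110.4 CPM with exon 5 and at 136, 148 and 62.3 CPM without. Every isoform library lay below every input, with log2 fold changes of -1.22 ± 0.80 and -1.76 ± 0.81 that did not pass the test (SE; adjusted p = 0.334 and 0.166, edgeR).

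Rpl12, at the base of the stalk that recruits translation factors, varied little between inputs. It stood at 216, 229 and 190.2 CPM in the inputs, at 31.4, 85.6 and 46.8 CPM with exon 5 and at 33.1, 54.1 and 64.4 CPM without. Its groups did not overlap either, and its log2 fold changes of -1.95 ± 0.92 and -2.06 ± 0.93 did not pass (SE; adjusted p = 0.174 and 0.158, edgeR).

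Of the other genes with the highest input levels, Rpl18 and Rpl5 rested on few libraries. Rpl18, a large-subunit protein, stood at 60.1, 556 and 0 CPM in the inputs and at most at 9.36 CPM in an isoform library. Rpl5, which forms a particle with 5S ribosomal RNA, stood at 270.3, 338 and 0 CPM in the inputs and between 7.13 and 54.3 CPM in the isoform libraries. Input 3, the FLAG-GFP line, was at 0 for both, and it was the shallowest library.

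For some ribosomal protein genes the isoform levels overlapped or exceeded those of the inputs. Rpl3, at the peptidyl transferase centre, stood at 36.0, 0 and 0 CPM in the inputs, at 5.71, 41.4 and 64.6 CPM with exon 5 and at 42.3, 42.3 and 31.5 CPM without. Its log2 fold changes of 1.61 ± 1.52 and 1.66 ± 1.53 did not pass the test (SE; adjusted p = 0.532 and 0.521, edgeR). Rpl10a, which forms the L1 stalk, stood at 0, 76.3 and 0 CPM in the inputs, at 75.7, 88.5 and 17.8 CPM with exon 5 and at 22.1, 83.5 and 20.3 CPM without. Both genes' groups overlapped. Rpl10, which sits near the P site, stood at 48.1, 174 and 106 CPM in the inputs, at 12.9, 30.0 and 88.9 CPM with exon 5 and at 51.5, 38.8 and 13.99 CPM without, also overlapping.

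Rps15 stood at 372, 212 and 0 CPM in the inputs, at 10.0, 20.0 and 13.1 CPM with exon 5 and at 60.7, 17.6 and 290.3 CPM without. The high value was the third library without exon 5, and input 3 was at 0, so no order of the groups can be read from it. Rpl22l1 stood at 661 CPM in the third library with exon 5, at 0 in all inputs and at no more than 3.53 CPM elsewhere. It was not tested, since the filter asked for counts in more than 1 library.

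**Figure D3:**
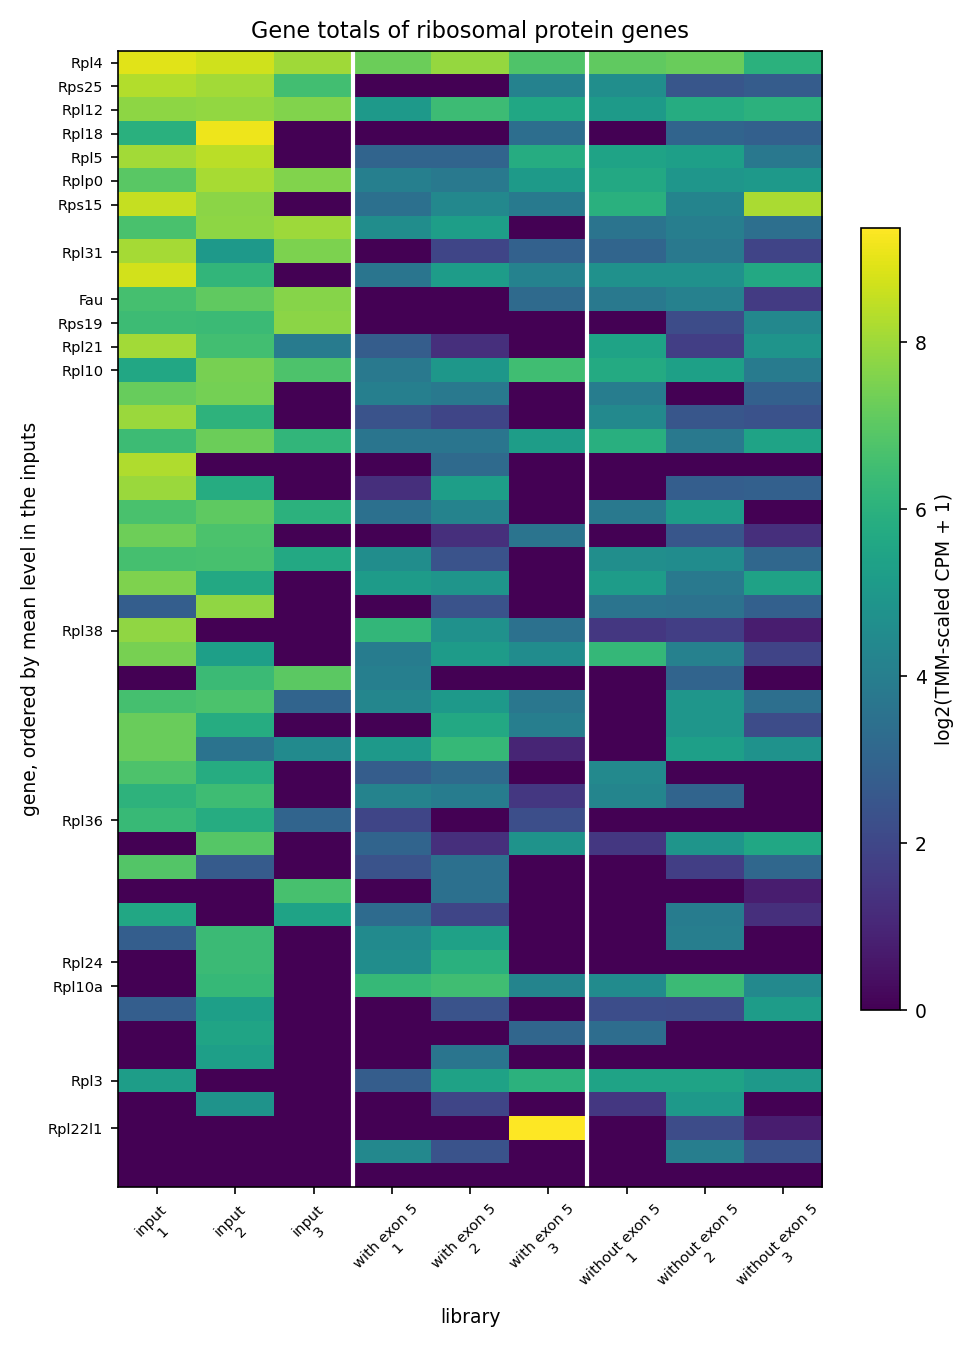
Gene totals as log2(CPM + 1) (colour) for all 48 genes (rows, ordered by mean input level, with names for some genes of the text) in the 9 libraries (columns, white lines between groups). The input columns are brightest in the upper rows, input 3 is dark in many of them, and single bright cells stand out for Rpl22l1 (661 CPM) and Rps15 (290.3 CPM).

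Across the 48 genes, the order of levels per kilobase of annotated mRNA was not the same in inputs and isoforms. Spearman's rho was 0.20 between input and exon 5 levels, 0.36 between input and levels without exon 5, and 0.48 between the isoforms. These are descriptions across genes, which share the libraries and their depth and are not independent replicates. Per kilobase, Rps15 (309 CPM) and Rpl4 (254 CPM) led in the inputs. With exon 5, Rpl22l1 (351 CPM), Rpl4 (109 CPM) and Rpl10a (71.9 CPM) led, and without it Rps15 (195 CPM), Rpl4 (75.1 CPM) and Rpl10a (49.8 CPM).

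The 7 genes with a pyrimidine run at the annotated start had values within the range of the others. Of these 7, 6 were tested and only Fau was called, with exon 5. Their median log2 fold change over input was -2.34 with exon 5 and -2.72 without, beside -3.04 and -2.55 for the other 28 tested genes. They ranged from Fau, at -5.50, to Rpl38, at -1.03, with exon 5, and from Rpl38, at -5.40, to Rpl35a, at -1.19, without.

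Between the isoforms, no ribosomal protein gene passed the test. The counts called higher and lower with exon 5 were 0 and 0 of 34, as for all 8342 genes (0% each way, edgeR), and DESeq2 also called 0 of the 34 and limma-voom 0. At an unadjusted p under 0.05 there were 5 of the 34 (14.7%) and 93 of all genes (1.11%). The median log2 difference was -0.22, against -0.03 over all genes, with 16 genes above and 18 below 0. The 5 genes were Rps19, Rpl21 and Rps15, with values below 0, and Rpl38 and Rpl24, above 0. Rpl24, near a bridge between the subunits, stood at 22.9, 61.4 and 0 CPM with exon 5 and at 0 in all libraries without, and Rpl38, known for its part in the translation of Hox mRNAs, at 72.8, 25.7 and 10.3 CPM against 1.84, 2.35 and 0.70. For Rpl4, the best counted gene, the difference was 0.54 ± 0.79 (SE), which leaves room for a change in either direction. With no filter on low counts, Rpl22l1 alone was called higher with exon 5, on its single library.

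The authors' deposited table for the isoform libraries lists 5 of the 48 genes, each once with 1 gene part and in the class for both isoforms. Its log2 fold changes with over without exon 5 were 0.68 for Rpl10, 0.72 for Rpl10a, 0.10 for Rpl3 and -3.35 for Rps15 in the CDS, and -0.22 for Rpl4 in the 5' UTR, per the authors' deposited table.

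Ribosomal protein mRNAs have short parts, which sets where their reads can fall. Their median CDS was 475.5 bases and their median 3' UTR 115 bases, against 1185 and 1090.5 bases over all genes, and their median 5' UTR was 159 against 197 bases. In all, 37 of 48 (77.1%) had a CDS under 700 bases, and 37 of 48 (77.1%) a 3' UTR under 500 bases, against 22.2% and 27.4% of all genes with such a part. The CDS made up 51.0% of their summed length, the 3' UTR 25.5% and the 5' UTR 23.4%, beside 54.1%, 42.2% and 3.71% over all genes. A 5' UTR length was given for 47 of the 48 but for only 8843 of 22442 genes, which lowers the last value. Only genes that the deposited tables name could be found by symbol, and one of these tables lists genes with an annotated 5' UTR, so the 48 genes are part of the 85 protein-coding genes with such symbols in RefSeq.

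Most counts on these genes lay in the CDS in all libraries but the third with exon 5. In inputs 1, 2 and 3, 73.4%, 62.1% and 72.3% of ribosomal protein counts lay in the CDS. With exon 5 the CDS held 68.7%, 74.0% and 39.2%, and without exon 5 79.1%, 66.6% and 87.8%. The groups overlapped, with means of 69.3% ± 6.23, 60.6% ± 18.8 and 77.8% ± 10.7 (SD, n = 3 each). Over all genes the same share was 46.7% ± 1.13 in the inputs, 67.2% ± 1.22 with exon 5 and 67.7% ± 1.11 without, where groups with and without antibody did not overlap.

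The 3' UTR of ribosomal protein genes held 8.33%, 9.10% and 17.4% of their counts in the inputs, 6.77%, 10.6% and 51.5% with exon 5, and 8.88%, 11.97% and 1.54% without. In the third library with exon 5, 706 of 714 such counts were those of Rpl22l1, which left 8. Without that gene the mean 3' UTR share with exon 5 was 6.18% ± 4.73 in place of 23.0% ± 24.8. The 5' UTR held 19.1% ± 9.28 in the inputs, 16.4% ± 7.64 with exon 5 and 14.7% ± 5.87 without. For all genes it held 3.11% to 3.52%, but only 8843 of 22442 genes had an annotated 5' UTR, against 47 of these 48. Genes without one add no counts to that part, so the 2 sets of shares are not like for like.

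Per kilobase of annotated sequence the contrast between inputs and isoforms was present in the coding and 5' untranslated parts. The CDS of ribosomal protein genes had 160.0, 117 and 57.8 CPM per kilobase in the inputs, 17.96, 30.2 and 18.5 with exon 5 and 25.1, 21.7 and 29.0 without. The CDS of all genes together had 9.08 ± 2.75 CPM per kilobase in the inputs, 21.7 ± 1.54 with exon 5 and 22.1 ± 1.74 without (SD, n = 3 each). Ribosomal protein coding sequence was thus 12.3 times as dense as that of all genes in the inputs, and 1.02 and 1.14 times as dense with and without exon 5.

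In the 5' UTR the density was 74.1 ± 51.1 CPM per kilobase in the inputs, 12.4 ± 2.45 with exon 5 and 10.4 ± 4.18 without, with the lowest input (17.9) above the highest isoform library (15.2). That was 8.47, 0.82 and 0.62 times the density of all 5' UTRs. In the 3' UTR the density was 32.7 ± 4.47 in the inputs, 20.3 ± 24.7 with exon 5, where the third library reached 48.7, and 4.81 ± 3.46 without. All 3 libraries without exon 5 lay below all inputs, while those with exon 5 overlapped them through the library that holds the Rpl22l1 counts.

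**Figure D4:**
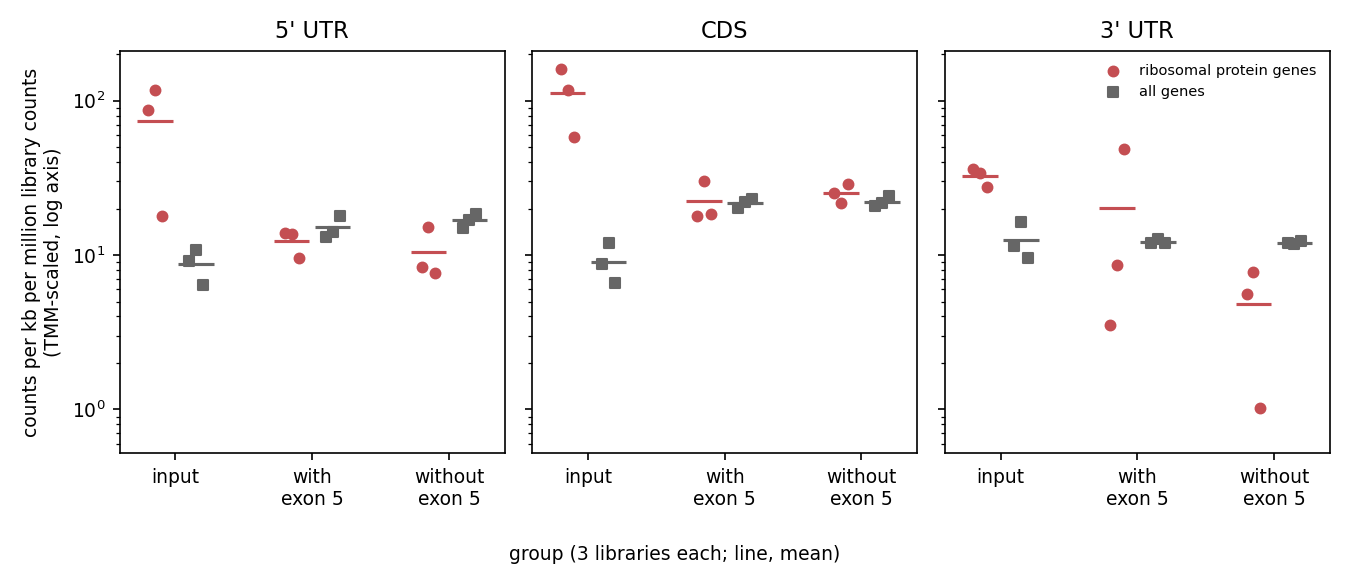
Density of counts per kilobase of each gene part (TMM-scaled CPM per kb, log axis) in the 3 libraries of each group (points; line, mean) for ribosomal protein genes (red) and all genes (grey). In the inputs the CDS density of ribosomal protein genes (57.8 to 160.0) lies above that of all genes (mean 9.08), and in the isoform libraries it runs from 17.96 to 30.2, around the means of all genes (21.7 and 22.1).

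In the CDS, 8 of the 27 genes that passed the filter were lower with both isoforms than in the inputs and 1 was higher, while 1.41% of all 6376 genes tested were called lower and 17.6% higher (edgeR; all 6 isoform libraries against the 3 inputs, with CDS counts scaled on their own). The median log2 fold change was -2.47, beside 1.54 over all genes tested. With groups at 0 counts set to the bound of 3 counts per library, the median of all genes was 0.74. The ribosomal protein median stayed at -2.47. At an unadjusted p under 0.05, in either direction, there were 15 of the 27 (55.6%) and 37.3% of all genes tested. With library size alone, 11 were lower and 0 higher, and 57.3% of all calls were higher in place of 92.6%.

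Rpl31 had the smallest p. Its CDS counts in inputs 1, 2 and 3 were 14, 6 and 26, and in the isoform libraries 7 in the third with exon 5 and 0 in the other 5. It fell by 7.25 ± 1.42 on the log2 scale (SE; adjusted p = 0.0130, edgeR) and passed in all 18 alternative fits. Rpl36 had 13, 5 and 1 CDS counts in the inputs and 0 in all 6 isoform libraries, at least 10.6-fold lower (adjusted p = 0.0200, edgeR). Rps19 had 14, 6 and 30 CDS counts in the inputs and, in the isoforms, 28 in the third library without exon 5 and 0 elsewhere, at a log2 fold change of -6.64 ± 1.53 (SE; adjusted p = 0.0201, edgeR).

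Rplp0, the protein at the base of the stalk, had 10, 30 and 27 CDS counts in the inputs, 11, 3 and 23 with exon 5 and 27, 18 and 40 without, and fell by 2.83 ± 0.87 on the log2 scale (SE; adjusted p = 0.0401, edgeR). For Rpl31, Rpl36, Rps19 and Rplp0, every isoform library lay below every input in CPM. Of these, Rpl31, Rpl36 and Rps19 would not have passed the filter on the CDS counts of their isoform libraries alone.

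The groups overlapped for Rpl19, Rps21 and Rpl21. Rpl19 had 41, 3 and 0 CDS counts in the inputs, Rps21 18, 10 and 0, and Rpl21 24, 17 and 0, so that input 3 was at 0 for each. With exon 5 and then without, replicates 1 to 3, Rpl19 had 3, 0 and 0, then 11, 3 and 6 counts. Rps21 had 0 throughout apart from 11 in the first library without exon 5, and Rpl21 had 0, 1 and 0, then 23, 2 and 3. Their log2 fold changes were -4.58 ± 1.45, -5.71 ± 1.78 and -4.80 ± 1.43 (SE; adjusted p = 0.0435, 0.0451 and 0.0363, edgeR).

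Rpl10a was the exception. Its CDS had 0 counts in all inputs, 47, 62 and 19 with exon 5, and 12, 56 and 29 without, at least 2.36-fold higher in the isoform libraries (adjusted p = 0.0360, edgeR). Its adjusted p was 0.0764 with DESeq2 size factors in the same test and 0.0798 with library size alone. All 14 of its input counts lay outside the CDS, in input 2.

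Of the alternative fits, Rps19 passed in 13 of 18 and Rpl36 in 13 of 16, while Rplp0, Rpl19, Rpl21 and Rps21 passed in 8 of 18 each and Rpl10a in 5 of 18. Without input 1, Rpl19 had a log2 fold change of -1.30 with an adjusted p of 0.674 (edgeR). Leaving out any 1 isoform library left 2 or 3 ribosomal protein genes called in the CDS and 226 to 332 of all genes, against 1210 with all libraries. Leaving out input 1, 2 or 3 gave 5, 9 and 16, while 1082, 2407 and 1133 of all genes were called. Between the isoforms, 0 of 27 genes were called lower and 0 higher, as for all genes (0% each, edgeR). At an unadjusted p under 0.05 there were 4 of 27 (14.8%) and 82 of 6376 (1.29%). DESeq2 and limma-voom called 0 of the 27.

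In the 5' UTR, 7 genes passed the filter, 2 were lower with both isoforms and 0 higher, while 1.51% of 661 genes tested were called lower and 41.1% higher (edgeR). Rps25 had 3, 46 and 13 counts there in the inputs and 4 in all isoform libraries together, all in the second library without exon 5, and fell by 7.15 ± 1.45 on the log2 scale (SE; adjusted p = 0.0110, edgeR). Rpl13, a large-subunit protein, had 16, 18 and 7 counts in the inputs, 0, 3 and 0 with exon 5 and 0, 8 and 11 without, and fell by 3.94 ± 1.33 (SE; adjusted p = 0.0291, edgeR). For both, no isoform library reached the lowest input in CPM, and neither would have passed the filter on its isoform libraries alone. Leaving out 1 library left 0 to 3 genes called, 0 without input 2, 3 without the second library with exon 5, 2 without the second library without exon 5, and 1 without any of the other 6. Calls over all genes in these 5' UTR fits are not given here. With library size alone, 42.1% of all calls in the 5' UTR were higher in place of 96.5%, and both genes were still lower.

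Rpl4 and Rpl18 had the most counts in the 5' UTR, followed by Rpl38 and Rps25 with 66 each. Rpl4 had 6, 5 and 37 5' UTR counts with exon 5, 14, 14 and 29 without and 0, 3 and 0 in the inputs, a ratio over input of 5.40 (95% interval 1.80 to 26.6 from counting error in pooled libraries), and did not pass the test (adjusted p = 0.262, edgeR). Rpl18 had 80 of its 83 5' UTR counts in input 2. Rpl38 had 51, 0 and 11 counts with exon 5, 1, 2 and 1 without and 0 in the inputs. Between the isoforms 0 of 7 genes were called lower and 0 higher, as for all genes (0% each, edgeR), with 1 of 7 and 12 of 661 at an unadjusted p under 0.05 and 0 of 7 by DESeq2 and limma-voom.

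In the 3' UTR only 2 of the 48 genes, Rpl22 and Rpl5, passed the filter, and 29 had any count there. Rpl5 was called lower with both isoforms and 0 genes higher, while 1.34% of 4984 genes tested were called lower and 14.5% higher (edgeR). This rested on 1 library: Rpl5 had 0, 46 and 0 counts in the inputs, 0 in all libraries with exon 5, and 10, 18 and 4 without, with a log2 fold change of -5.02 ± 1.59 (SE; adjusted p = 0.0420, edgeR). Without input 2 its log2 fold change was 3.19, and without the third library of either isoform it did not pass. Rpl22, which binds RNA and is known to repress its paralog Rpl22l1, had 15, 16 and 1 counts with exon 5, 0, 6 and 0 without and 6, 0 and 0 in the inputs. Rpl4 had 3, 29 and 0 with exon 5, 2, 9 and 5 without and 0 in the inputs. Between the isoforms 0 of 2 genes were called lower and 0 higher, as for all genes (0% each, edgeR), with 1 of 2 and 93 of 4984 at an unadjusted p under 0.05 and 0 of 2 by DESeq2 and limma-voom.

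The use of the CDS against the 3' UTR within a gene differed between isoform libraries and inputs in 262 of 4037 genes tested (6.49%) in edgeR's test for relative use of parts, and in 0 of the 2 ribosomal protein genes among them. Rpl5 had an adjusted p of 0.155 and Rpl22 of 0.961. Leaving out input 3 gave 1 called ribosomal protein gene, and the calls over all genes in that fit are not given here. Between the isoforms the test called 0% of all genes and 0 of the 2.

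Short coding sequence went with a lower fold change over input among other genes too. For a short 3' UTR, whatever the CDS, the direction depended on how groups at 0 counts were treated. Among the 743 other genes tested with a CDS under 700 bases, the median log2 fold change was -0.54 with exon 5 and -0.57 without, and for the 109 that also had a 3' UTR under 500 bases it was -0.94 and -0.79. Genes with a CDS over 3000 bases had 1.92 and 1.92. The 1154 other genes with a 3' UTR under 500 bases, whatever their CDS, had 1.14 and 1.21, slightly above the 1.03 of all genes. Bounded at 3 counts per library where a group was at 0, they had 0.55 and 0.68, below the 0.70 and 0.72 of all genes. The ribosomal protein medians of -2.95 and -2.55 lay below the lower quartiles of the short genes, -1.97 and -1.86, and of the genes short in both parts, -2.50, with exon 5. Without exon 5 the lower quartile of genes short in both parts was -2.61, below the ribosomal protein median. Within the 34 ribosomal protein genes, log2 fold change and log2 CDS length had a Pearson r of 0.22 with exon 5 and 0.51 without. Over 8308 other genes it was 0.23 and 0.22, and these are descriptions across genes that share libraries. The part of length in the low counts of ribosomal protein genes was not tested.

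Neighbouring genes of the translation machinery differed in their counts. Of all genes tested, 0.863% were called lower with exon 5 and 0.587% without, and the median log2 fold changes were 1.03 and 1.03. Of 13 other TOP mRNAs tested, 0 were lower with exon 5 and 2 without, with medians of -1.56 and -1.48. The 2 were Tpt1, the translationally controlled tumour protein (14 counts over 3 libraries against 117 in the inputs, log2 -5.66 ± 1.53, adjusted p = 0.0361, edgeR), and Naca, which binds nascent chains (80 against 214 counts, -3.82 ± 1.00, adjusted p = 0.0331, edgeR). Of 19 translation factors, 1 was lower with exon 5, the start-site selection factor Eif1 (-3.75 ± 1.02, adjusted p = 0.0347, edgeR), and 0 without. Their medians were 0.12 and 0.37. With groups at 0 set to the bound of 3 counts per library, these were 0.12 and 0.05, and those of all genes 0.70 and 0.72.

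In 3 further lists some genes were higher with Chtop than in the inputs, beside 8.31% of all genes tested with exon 5 and 8.12% without. Among genes with a CDS over 3000 bases, 20% and 19.6% were called higher. The lists were not matched for length, and the part of length in their calls was not tested. Of 27 ribosome biogenesis genes, 1 was higher with either isoform, Mdn1, a very large ATPase that remodels pre-60S particles, at 1746 ± 125 CPM with exon 5 and 1442 ± 258 without, against 195 ± 143 CPM in the inputs (adjusted p = 0.00864 and 0.0124, edgeR), and the list's medians were 1.05 and 0.73. Of 21 mitochondrial ribosomal protein genes tested, 0 were called with exon 5 and Mrps6 was higher without (at least 3.79-fold, adjusted p = 0.0411, edgeR), with medians of 0.00 and 0.18. Of 9 regulators of TOP mRNA translation, 3 were higher with either isoform: Mtor, its partner Rptor and the S6 kinase Rps6kb2. Rps6kb2 had 0 counts in the inputs and was at least 3.49-fold higher with exon 5 and 5.87-fold without. Mtor had log2 fold changes of 3.69 ± 0.99 and 3.36 ± 0.98 (SE; adjusted p = 0.0347 and 0.0468, edgeR), and Rptor of 3.99 ± 0.93 and 4.25 ± 0.94 (SE; adjusted p = 0.0220 and 0.0179, edgeR). Larp1, which binds TOP motifs, did not pass (0.98 and 1.18; adjusted p = 0.576 and 0.492, edgeR).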

How the data were processed

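Raw counts for 3 parts of each gene (5' UTR, CDS and 3' UTR) and for their sum were deposited by the authors, and part lengths in bases (another kind of value), per the file headers; a deposited table gives the authors' log2 fold change between isoforms. Per the submitters' processing notes, mm10, TopHat2 and DESeq2 were used. For read filtering, duplicate removal, counting and strand, settings were not given in the sources used here. In all, 27 columns of per-sample values were not used. Input columns carry other replicate numbers than 2 of the titles and were matched by primer and line.

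Genes were tested with edgeR 4.0.16 in R 4.3.3 (quasi-likelihood F-test, robust, TMM, filterByExpr with minimum count 10 and minimum total 15), with all 9 libraries in 1 fit, and Benjamini-Hochberg adjustment over all genes tested (threshold 0.05). Each gene part was fitted on its own table. Use of CDS against 3' UTR was tested with diffSpliceDGE. Where a group had 0 counts, the fold is a bound against 3 counts per library. The procedures were tested on simulated data. Alternatives were DESeq2 1.42.0, limma-voom (limma 3.58.1), other scaling, no filter, only the groups compared, a replicate block and leaving out each library. Members and lists were chosen with earlier results of these data known, so no test over a list was made. Values in every library are given for called genes, the 5 highest in inputs and in isoforms, and the 3 with most counts per part. Of the 8 genes lower in the CDS, 1 is not reported here. P-values draw on the spread between libraries within the 3 groups of 3, shared over the groups and across genes in the fit. The 3 inputs came from different lines, so their spread also holds any difference between lines.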

Additional observations from a re-analysis of the deposited data

How the results depend on the processing

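The medians over input stayed below 0 for gene totals, CDS and 5' UTR in all alternatives run, and below the median of all genes. Counts of genes called moved more. With exon 5 over input they were 9 with no filter on low counts, 17 with DESeq2's Wald test and 0 when only the groups compared were fitted, against 5; over all genes the same fits called 1211, 1695 and 29, against 765. Without exon 5 they were 2 with library size alone, 6 with no filter, 13 with DESeq2, 5 with limma-voom and 0 with only the groups compared, against 1, and over all genes 306, 1184, 1603, 1062 and 18, against 726. In the CDS 17 were called with no filter and 17 with DESeq2, against 9, and over all genes 1188 and 1350, against 1210. In the 3' UTR 6 were called with no filter and 0 with limma-voom, against 1. With over without exon 5, no filter called 1 gene in totals and 1 in the 3' UTR, and 1 in the relative use of parts over input. For these 3' UTR, isoform and part-use fits, calls over all genes are not given here. Such counts therefore do not set ribosomal protein genes apart from the rest. The no-filter median was 0.84 over input and 0 between isoforms in the 3' UTR, with more genes tested, and -0.81 between isoforms in the 5' UTR. The cause of these changes was not tested.

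Leaving out 1 library gave 0 to 10 genes called with exon 5 over input, 0 to 7 without and 2 to 16 in the CDS. It gave 0 to 2 in the 3' UTR, 0 to 3 in the 5' UTR and 0 to 1 in the use of parts. In gene totals and the CDS the calls over all genes moved as well, as given above. For the UTRs and the use of parts they are not given here, so those counts do not set ribosomal protein genes apart. The 3' UTR median over input ran from -6.11 to 2.17, the latter without input 1 (4 genes tested), and between isoforms from -3.55 to 0.14; the 5' UTR median between isoforms ran from -1.19 to 0.40. Rpl5 in its 3' UTR ran from -5.58 to 3.19, the latter without input 2. Without Rpl22l1 and Rps15, an alternative chosen after seeing the data, the share without exon 5 was 0.0640%.

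Deviations from the group mean of same-numbered libraries had correlations from -0.015 to 0.042 by the titles. By the column numbers they ran from 0.0019 to 0.042, all above 0. Differently numbered libraries of different groups then ran from -0.046 to 0.016. All these values were small, and whether the replicates are paired was not settled by them. The main fits did not take the numbers as pairs. A replicate block by the titles gave 1 called gene with exon 5, 0 without, 4 in the CDS and 0 in the 3' UTR. A block by the column numbers, added after seeing the data, gave the same counts of 1, 0, 4 and 0. Calls over all genes in these block fits are not given here, so these counts do not set ribosomal protein genes apart from the rest. Naming genes from a reference by gene ID was not run, as the reference used here pairs no Ensembl IDs. The shallow inputs limit what can be seen of genes below about 16.3 CPM there.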
